A study of Homo sapiens with 23 samples.

Results

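The 35 genes described here encode proteins of DNA repair and of the checkpoint that goes with it, and were taken by name from the 21463 gene rows of the authors' deposited table. They fall into 7 pathway groups: homologous recombination (11 genes), Fanconi anaemia (4), checkpoint kinases (4), break sensing (3), end joining (5), base excision (6) and mismatch repair (2). The cells were PC-3, an established human line from a bone metastasis of prostate cancer, transduced with a lentivirus that carries a PARG cDNA with a cleavable mClover3 fluorescent protein behind a doxycycline-inducible TetOne promoter. The groups compared were clone I4 with 500 ng/ml doxycycline for 72 h against clone I4 without it, and clone H6 with 500 ng/ml doxycycline for 72 h against clone H6 without it, each in experiment N (passage 5) and in experiment B (passage 7). The 23 libraries came from wells of a 6-well plate, with 3 wells in a group except for 2 wells of H6 without doxycycline in experiment B. Each clone grew from a single transduced cell, and all groups carry the construct. Construct-free cells are not among the groups used here, so doxycycline itself and the PARG it induces cannot be told apart.

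PARG is the main enzyme that cuts poly(ADP-ribose) chains off proteins, and PARP1, the enzyme that builds most of these chains, does so at broken DNA. Homologous recombination repairs a broken chromosome by copying the intact sister, which confines it to S and G2 phase, and many of its genes are transcribed most strongly as cells enter S phase. End joining ligates broken ends directly and works throughout the cell cycle, whereas base excision and mismatch repair correct damaged or mispaired bases in 1 strand.

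For a comparison of doxycycline with no doxycycline in 1 clone and experiment, the authors' deposited table lists a level, which is the larger group mean in RPKM (reads scaled to exon length and library size), a signed fold and a q-value, which is a p-value adjusted over all genes. It holds no value per library, so no SD is given, and the q-value is the only test of a single gene. The wells of a group are cultures of the same clone, so a q-value at most measures the spread between wells. A gene was called lower or higher where q was under 0.05, and below a gene that fell or rose is one so called. A level with doxycycline or without it that is not the listed one was obtained by dividing the listed mean by the fold. The lower level of each pair below is such a derived value, also where the authors' deposited table is named as its source. This takes the fold as the ratio of the group means, which is not stated there. The direction of all folds was read from PARG, whose fold has a positive sign in every comparison, with sizes in the authors' deposited table of 1.35 (I4, experiment N), 2.15 (H6, experiment N), 1.40 (I4, experiment B) and 1.99 (H6, experiment B). The markers of a PC-3 cell were as the line is known: in the authors' deposited table KRT18 stood at 101 to 127 RPKM, KRT8 stood at 25.1 to 55.9 RPKM and KLK3 was listed at 0 in 3 comparisons. Depth, read from what a single read adds to genes of very low level, was about 33.7 to 43.2 M (mega) reads per library in experiment N and 19.2 to 26.5 M in experiment B.

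Every one of the 35 genes was listed at 1 RPKM or more in all 4 comparisons and was tested in all 4. In the authors' deposited table the Ku subunits XRCC6 (135 to 184 RPKM) and XRCC5 (92.9 to 169 RPKM) and the abasic endonuclease APEX1 (79.5 to 128 RPKM) had the highest levels. RAD50 (1.10 to 1.93 RPKM) and BRCA2 (1.35 to 2.43 RPKM) had the lowest levels there. RAD50 shares 79.7% of its exon bases with AC116366.3 on the same strand, so its level and its rank are uncertain. At the shallowest library, the listed level of MUTYH rests on about 125 reads, that of LIG4 on about 186, that of XRCC4 on about 228 and that of RAD50 on about 263, and every other gene of the list rests on more.

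**Figure D1:**
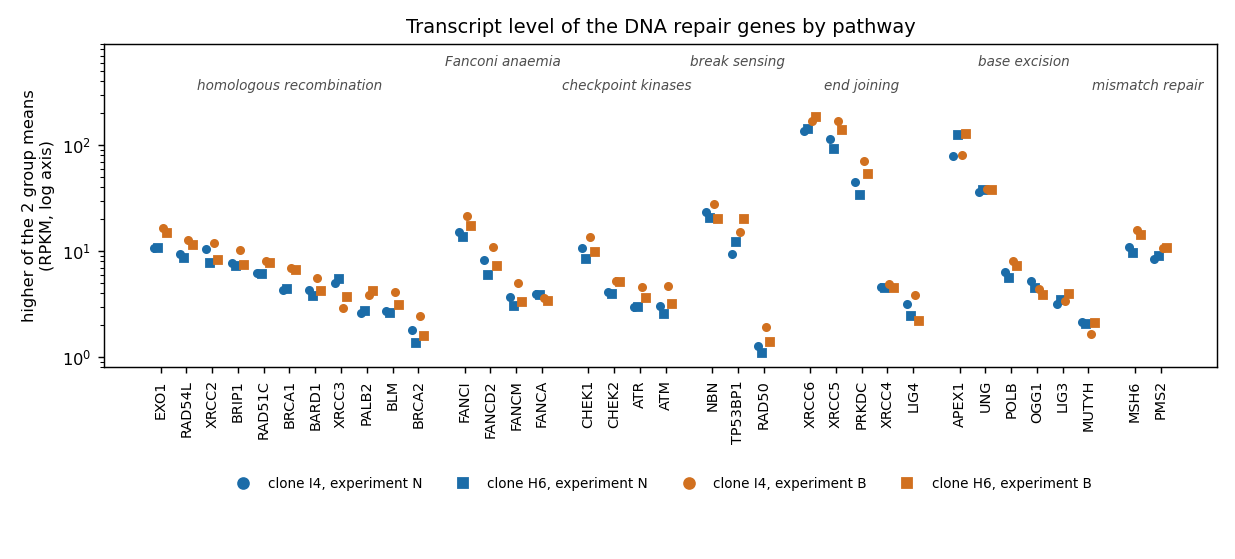
Level of each DNA repair gene as the larger group mean (RPKM, log axis), by pathway; circles are clone I4 and squares clone H6, blue is experiment N and orange experiment B. Levels span from 1.10 RPKM (RAD50, whose level is uncertain because of a gene overlap) to 184 RPKM (XRCC6), and the experiments were normalized separately.

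Nearly all changes of these transcripts with doxycycline were falls, and the folds were small. Of the 35 genes, 13 fell in I4 N (clone I4 in experiment N, and likewise below), 15 in H6 N, 5 in I4 B and 5 in H6 B. Over all genes tested, 8.53% fell in I4 N, 7.07% in H6 N, 6.59% in I4 B and 3.93% in H6 B. Among the 10324 genes of at least 1 RPKM in all 4 comparisons, which the repair genes resemble more in level, the shares that fell were 12.7%, 10.7%, 9.1% and 5.32% in that order. The shares of the 35 were 37.1%, 42.9%, 14.3% and 14.3%, above both backgrounds in all 4 comparisons. A total of 9 genes (25.7%) fell in both clones of experiment N, where 4.49% of genes tested in both and 6.62% of those of at least 1 RPKM did so. In experiment B 2 genes (5.71%) fell in both clones, against 2.55% and 3.45%. Only UNG (2.86% of the list) fell in all 4 comparisons, as did 1.97% of genes tested in all 4 and 2.68% of those of at least 1 RPKM, so this last share is close to the background.

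Rises were rare. POLB rose in I4 in experiment N and LIG4 rose in I4 in experiment B, which is 2.86% of the list in each, and no gene of the list rose in H6. Of all genes tested, 7.18% rose in I4 N, 6.57% in H6 N, 7.46% in I4 B and 3.63% in H6 B; for genes of at least 1 RPKM these shares were 10.4%, 9.81%, 10.2% and 4.93%. No repair gene of the 35 rose in both clones of an experiment, while 3.67% of genes tested did in experiment N, 2.38% in experiment B and 1.73% in all 4 comparisons. The genes of the list were chosen with results of these data known, so these shares describe the list and are not a test of it.

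The median log2 fold of the 35 genes was -0.11 in I4 N, -0.18 in H6 N, -0.07 in I4 B and -0.14 in H6 B. Over all genes tested these medians lay between 0.002 and 0.01. The fold was below 1 for 27 genes (77.1%) in I4 N and 28 (80%) in H6 N. In experiment B it was below 1 for 23 (65.7%) in I4 and 28 (80%) in H6. Over all genes tested these shares were 48.6%, 49.5%, 49.5% and 48% in I4 N, H6 N, I4 B and H6 B. Over genes of at least 1 RPKM they were 51.8%, 51.8%, 49.5% and 48.3% in that order. In bulk RNA a lower level per cell and a smaller share of cells that hold the transcript, such as cells in S phase, cannot be told apart.

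**Figure D2:**
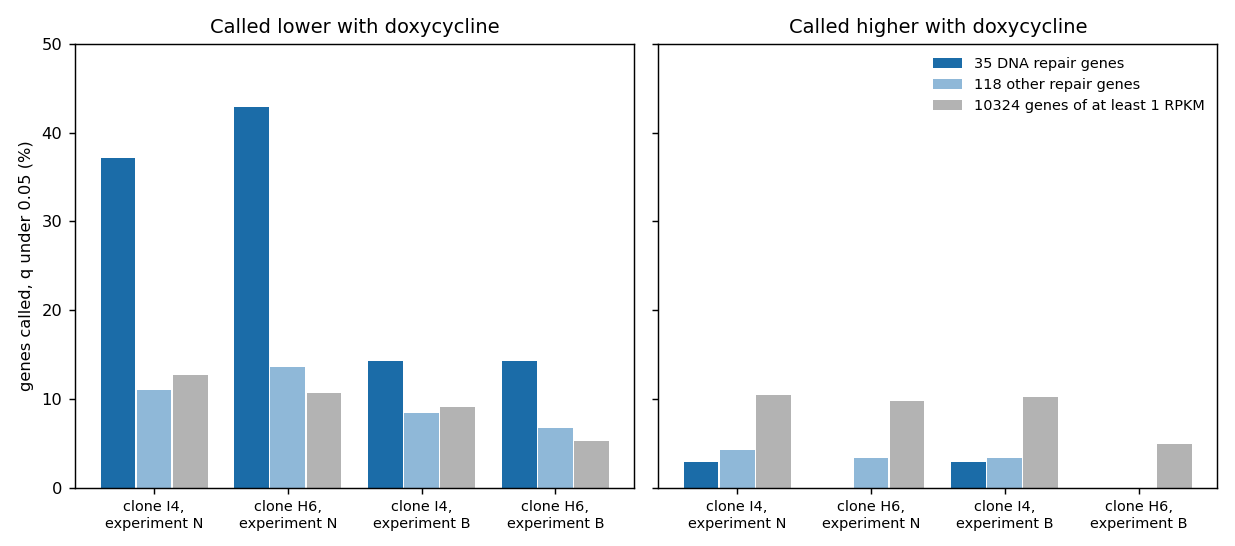
Share of genes called lower (left) and higher (right) with doxycycline at q under 0.05 in each clone and experiment, for the 35 DNA repair genes (dark blue), 118 other repair genes (light blue) and 10324 genes of at least 1 RPKM (grey). The dark bars for lower calls stand at 37.1% and 42.9% in experiment N and at 14.3% in both clones of experiment B.

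The calls were spread unevenly over the list. UNG was called lower in 4 comparisons, PALB2, BRIP1, XRCC2 and FANCA in 3, another 7 genes in 2 and 8 genes in 1. The other 15 genes were never called lower. Among these, FANCI and LIG3 had folds below 1 in all 4 comparisons, and BARD1 and XRCC4 in none. The promoters of the 4 genes with the most calls and the larger mean fold are shown, since each fell in at least 3 comparisons that span both experiments. The windows run from 250 bases before to 50 bases after the start in RefSeq on GRCh38.p14, read 5′ to 3′ on the strand of the gene. Capitals mark the letters TTTCCCGC, TTTCGCGC, TTTGCCGC and TTTGGCGC, which are of the E2F type, and TTTGAA, the letters of the cell cycle element called CHR, each searched on both strands. UNG has 2 starts, at chr12:109097347-109097646 (plus strand) and chr12:109097922-109098221 (plus strand). BRIP1 lies at chr17:61863479-61863778 (minus strand), FANCA at chr16:89816598-89816897 (minus strand) and XRCC2 at chr7:152676092-152676391 (minus strand).
UNG, upstream start: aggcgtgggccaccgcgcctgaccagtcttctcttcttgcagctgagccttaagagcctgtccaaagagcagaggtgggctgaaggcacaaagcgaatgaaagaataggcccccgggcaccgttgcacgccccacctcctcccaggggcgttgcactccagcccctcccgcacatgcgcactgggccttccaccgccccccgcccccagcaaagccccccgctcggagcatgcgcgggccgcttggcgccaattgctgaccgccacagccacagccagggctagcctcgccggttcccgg
UNG, downstream start: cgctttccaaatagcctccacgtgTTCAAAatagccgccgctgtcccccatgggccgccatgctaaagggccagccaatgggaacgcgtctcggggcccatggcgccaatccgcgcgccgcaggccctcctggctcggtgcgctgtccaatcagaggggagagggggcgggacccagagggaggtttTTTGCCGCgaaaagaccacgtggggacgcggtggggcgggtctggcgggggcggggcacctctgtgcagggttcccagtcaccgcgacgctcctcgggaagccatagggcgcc
BRIP1: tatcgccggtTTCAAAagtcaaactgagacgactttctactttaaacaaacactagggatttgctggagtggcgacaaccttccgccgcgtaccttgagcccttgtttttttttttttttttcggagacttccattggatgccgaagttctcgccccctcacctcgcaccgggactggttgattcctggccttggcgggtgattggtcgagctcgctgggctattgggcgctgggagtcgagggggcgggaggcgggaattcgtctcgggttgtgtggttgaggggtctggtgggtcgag
FANCA: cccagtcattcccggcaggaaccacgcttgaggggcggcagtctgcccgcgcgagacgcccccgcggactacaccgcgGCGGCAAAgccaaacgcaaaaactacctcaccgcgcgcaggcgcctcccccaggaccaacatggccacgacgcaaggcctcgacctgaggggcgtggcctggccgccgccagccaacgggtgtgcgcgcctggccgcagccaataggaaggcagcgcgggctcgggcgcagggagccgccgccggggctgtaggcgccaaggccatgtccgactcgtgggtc
XRCC2: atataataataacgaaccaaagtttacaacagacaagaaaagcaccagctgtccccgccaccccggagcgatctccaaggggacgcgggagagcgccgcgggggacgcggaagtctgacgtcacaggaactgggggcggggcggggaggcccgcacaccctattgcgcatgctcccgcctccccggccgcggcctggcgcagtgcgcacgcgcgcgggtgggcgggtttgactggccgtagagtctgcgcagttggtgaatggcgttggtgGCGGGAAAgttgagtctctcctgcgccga

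E2F-type letters stood 63 bases before the downstream UNG start (TTTGCCGC, gene strand), 172 bases before the FANCA start (TTTGCCGC, other strand) and from base 22 after the XRCC2 start (TTTCCCGC, other strand). BRIP1 held none of them in this window, and its capitals are TTTGAA on the other strand, 240 bases before the start; the same letters lie 226 bases before the downstream UNG start. RefSeq windows were matched for 30 of the 35 genes, not for FANCI, NBN, PRKDC, XRCC5 and POLB. Any of the E2F-type letters occurred in 8 of these 30 genes (26.7%), against 3.99% of 27305 genes with a window, and TTTGAA in 4 of 30 (13.3%), against 18.2% of all. The E2F-type letters stood in 7 of the 18 genes that fell at least once and in 1 of the 12 that never fell. These are matches of letters in a window and show neither binding nor its absence.

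Homologous recombination is the largest of the groups. Of its 11 genes, 7 fell in I4 N, 6 in H6 N, 3 in I4 B and 1 in H6 B. These shares were 63.6%, 54.5%, 27.3% and 9.09%, against 12.7%, 10.7%, 9.1% and 5.32% of genes of at least 1 RPKM. The same background applies to the smaller groups below. Of 26 other genes of homologous recombination, 3.85%, 11.5%, 7.69% and 3.85% fell in that order. The median log2 folds of the 11 were -0.24 in I4 N, -0.24 in H6 N, -0.17 in I4 B and -0.18 in H6 B. BRIP1, a helicase that binds BRCA1, fell in 3 comparisons. From the authors' deposited table its level was 6.31 RPKM with doxycycline against 7.79 RPKM without it in I4 N (1.24-fold, q = 0.000362). It was 5.76 against 7.32 RPKM in H6 N (1.27-fold, q = 5.09e-05) and 8.28 against 10.3 RPKM in I4 B (1.24-fold, q = 0.000391). In H6 B its log2 fold of -0.19 did not pass in the authors' deposited table (q = 0.193). XRCC2, which acts in the strand exchange step, also fell in 3: the authors' deposited table gives 8.65 RPKM with doxycycline against 10.6 RPKM without it in I4 N (q = 0.00179), 6.30 against 7.80 RPKM in H6 N (q = 0.00151) and 10.3 against 12.1 RPKM in I4 B (q = 0.0362). Its H6 B log2 fold there was -0.22 (q = 0.482).

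PALB2, the bridge between BRCA1 and BRCA2, fell in both clones of experiment N and in H6 of experiment B, the reverse of the clone that BRIP1 and XRCC2 add from B. Per the authors' deposited table its level was 2.13 RPKM with doxycycline against 2.62 RPKM without it in I4 N (q = 0.00855), 2.31 against 2.73 RPKM in H6 N (q = 0.0498) and 3.29 against 4.17 RPKM in H6 B (1.27-fold, q = 0.0142). In I4 B the log2 fold in the authors' deposited table was -0.11 (q = 0.674). BRCA1, which opens the way to resection and recruits PALB2, fell in both clones of experiment N alone: the authors' deposited table gives 3.56 RPKM with doxycycline against 4.34 RPKM without it in I4 (q = 0.00175) and 3.66 against 4.40 RPKM in H6 (q = 0.00436). The BRCA1 log2 folds in experiment B were -0.11 in I4 (q = 0.55) and -0.18 in H6 (q = 0.267) in the same authors' deposited table. BRCA2, which prepares resected DNA for strand exchange, fell likewise, to 1.53 RPKM with doxycycline against 1.81 RPKM without it in I4 N (q = 0.0222) and 1.03 against 1.35 RPKM in H6 N (1.31-fold, q = 7.47e-05), per the authors' deposited table. Its log2 folds in the authors' deposited table were -0.03 in I4 B (q = 1) and -0.22 in H6 B (q = 0.475).

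The other genes of the pathway fell in 1 comparison or in none. XRCC3, which also acts in strand exchange, fell 1.27-fold in I4 N (q = 0.00019) in the authors' deposited table, with log2 folds of -0.19 in H6 N, -0.26 in I4 B (q = 0.0536) and -0.14 in H6 B. BLM, the helicase that dissolves joint molecules, fell 1.27-fold in H6 N (q = 0.0259) in the authors' deposited table, and its log2 folds in the other three were between -0.20 and -0.09. EXO1, an exonuclease of end resection, fell 1.15-fold in I4 N (q = 0.0456) in the authors' deposited table, beside log2 folds of -0.17 in H6 N, -0.19 in I4 B and -0.11 in H6 B. RAD54L, a motor protein of DNA strand exchange, fell in I4 B alone (1.17-fold, q = 0.0434), and the authors' deposited table lists its log2 fold at -0.03 in I4 N, -0.14 in H6 N and -0.18 in H6 B. RAD51C, which forms a complex with XRCC3, and BARD1, the partner of BRCA1, were not called in any comparison, with log2 folds in the authors' deposited table of -0.08 to 0.09 and 0.03 to 0.08. BARD1 is the gene of this pathway whose fold lay above 1 in all 4 comparisons, although BRCA1, with which it pairs, fell in experiment N.

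The Fanconi anaemia genes act where DNA strands are crosslinked. Of the 4, 1 fell in I4 and 2 fell in H6 in experiment N, and FANCA fell in each clone of experiment B. FANCA is a subunit of the core ubiquitin ligase. From the authors' deposited table its level was 3.15 RPKM with doxycycline against 3.84 RPKM without it in H6 N (q = 0.00314). It was 3.00 against 3.60 RPKM in I4 B (q = 0.0196) and 2.72 against 3.42 RPKM in H6 B (1.26-fold, q = 0.0106). In I4 N its log2 fold in the authors' deposited table was -0.19 (q = 0.0857). FANCD2, which the core complex ubiquitinates, fell in both clones of experiment N, to 6.96 RPKM with doxycycline against 8.17 RPKM without it in I4 (q = 0.012) and 4.71 against 5.90 RPKM in H6 (1.25-fold, q = 0.00021), per the authors' deposited table. In experiment B the FANCD2 log2 folds in the authors' deposited table were 0.05 in I4 (q = 0.996) and -0.09 in H6 (q = 0.863). FANCI, the partner of FANCD2, was not called, with log2 folds of -0.14 to -0.07 in the authors' deposited table. FANCM, a DNA translocase of the pathway, was not called either, and its log2 folds in the authors' deposited table ran from -0.14 to 0.06.

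The checkpoint kinases relay the damage signal, and their calls came from H6 alone. ATM is the kinase that answers to chromosome breaks. From the authors' deposited table its level was 2.04 RPKM with doxycycline against 2.54 RPKM without it in H6 N (1.25-fold, q = 0.000253). In H6 B it was 2.55 against 3.15 RPKM (1.23-fold, q = 0.00637). In I4 the authors' deposited table gives ATM log2 folds of -0.05 in experiment N (q = 0.872) and 0.15 in experiment B (q = 0.215). CHEK1, the kinase downstream of ATR, fell 1.17-fold in H6 N (q = 0.0209) in the authors' deposited table, with log2 folds of -0.11 in I4 N, -0.13 in I4 B and -0.19 in H6 B. ATR, which answers to stalled forks, was not called, with log2 folds of -0.13 to 0.12 in the authors' deposited table. CHEK2, the kinase downstream of ATM, was not called, and its log2 folds in the authors' deposited table were 0.19 in I4 N and 0.11 in H6 N, against -0.01 in I4 B and -0.05 in H6 B.

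The break sensing genes were called in experiment N alone, 2 of 3 in I4 and 1 of 3 in H6. RAD50, the arm of the complex that tethers broken ends, had the largest fall of the list, to 0.747 RPKM with doxycycline against 1.10 RPKM without it in H6 N (1.48-fold, q = 0.00158), and to 0.975 against 1.26 RPKM in I4 N (1.29-fold, q = 0.0151), per the authors' deposited table. In experiment B the log2 folds of RAD50 in the authors' deposited table were 0.16 in I4 (q = 0.563) and -0.16 in H6 (q = 0.625). RAD50 shares 79.7% of its exon bases, on the same strand, with AC116366.3, so reads of the pair are uncertain; the authors' deposited table gives AC116366.3 log2 folds of 0.40 in I4 N, 0.11 in H6 N, -0.47 in I4 B and -0.12 in H6 B, none called. NBN, the subunit that recruits ATM to the same complex, fell 1.22-fold in I4 N (q = 0.000612) in the authors' deposited table, where its level without doxycycline was 23.2 RPKM. Its log2 folds in the authors' deposited table were -0.15 in H6 N, -0.12 in I4 B and -0.03 in H6 B. TP53BP1, which limits resection and favours end joining, was not called, with log2 folds of -0.16 to 0.01 in the authors' deposited table.

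End joining held 1 fall in each experiment, both of PRKDC in H6, and 1 rise. The Ku subunits XRCC5 and XRCC6, which encircle broken ends, were not called, with log2 folds in the authors' deposited table of -0.07 to 0.09 for XRCC5 and -0.03 to 0.08 for XRCC6. PRKDC, the kinase that Ku recruits, fell in H6 in both experiments: the authors' deposited table gives 29.3 RPKM with doxycycline against 33.7 RPKM without it in experiment N (q = 0.0235) and 44.4 against 52.9 RPKM in experiment B (1.19-fold, q = 0.0162). In I4 the PRKDC log2 folds of the authors' deposited table were -0.07 (q = 0.87) in experiment N and 0.03 (q = 1) in experiment B. LIG4, the ligase of this pathway, rose in I4 B to 3.86 RPKM with doxycycline against 3.18 RPKM without it (1.21-fold, q = 0.0279) in the authors' deposited table. Its log2 folds in the authors' deposited table were -0.01 in I4 N, -0.18 in H6 N and 0.18 in H6 B. XRCC4, the partner of LIG4, was not called, and its log2 folds in the authors' deposited table lay between 0.03 and 0.15. The medians of the 5 genes were -0.01 in I4 N, 0.02 in H6 N, 0.03 in I4 B and 0.09 in H6 B.

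Base excision repair was mixed. UNG, the glycosylase that removes uracil from DNA, fell in every comparison of the authors' deposited table: to 30.9 RPKM with doxycycline against 36.0 RPKM without it in I4 N (q = 0.0153), 29.9 against 37.5 RPKM in H6 N (q = 8.77e-05), 31.1 against 38.8 RPKM in I4 B (q = 0.00016) and 29.1 against 37.5 RPKM in H6 B (1.29-fold, q = 0.000195). Its 4 levels with doxycycline lay below its 4 levels without it. APEX1, which nicks the strand at the site a glycosylase leaves, fell in both clones of experiment N, to 69.7 RPKM with doxycycline against 79.5 RPKM without it in I4 (q = 0.0448) and 1.17-fold in H6 (q = 0.00992), per the authors' deposited table. In experiment B the authors' deposited table gives APEX1 log2 folds of -0.13 in I4 and -0.09 in H6. POLB, the polymerase that fills the gap, rose in I4 N to 6.36 RPKM with doxycycline against 4.91 RPKM without it (1.30-fold, q = 0.0137) in the authors' deposited table, and its log2 folds were 0.18 in H6 N (q = 0.23), 0.00 in I4 B and -0.02 in H6 B.

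The remaining base excision genes were not called. LIG3, which seals the nick, had log2 folds of -0.17 to -0.07 in the authors' deposited table. OGG1, the glycosylase of oxidised guanine, ranged from -0.08 to 0.03 on the log2 scale in the authors' deposited table. MUTYH, the glycosylase that removes adenine opposite oxidised guanine, had the widest span of the list in the authors' deposited table, with log2 folds of 0.42 in I4 N (q = 0.102), -0.12 in H6 N, -0.16 in I4 B and -0.48 in H6 B (q = 0.0563), on the fewest reads of the list. Both mismatch repair genes fell in a single clone of experiment N. MSH6, which recognises mispaired bases, fell to 9.12 RPKM with doxycycline against 10.9 RPKM without it in I4 (q = 0.00205) in the authors' deposited table, and its log2 folds in the other three were -0.18 to -0.11. PMS2, the subunit that cuts the new strand, fell to 7.09 RPKM with doxycycline against 8.92 RPKM without it in H6 N (1.26-fold, q = 0.000478) in the authors' deposited table, beside log2 folds of -0.20 in I4 N (q = 0.0676), -0.13 in I4 B and -0.24 in H6 B (q = 0.0922).

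**Figure D3:**
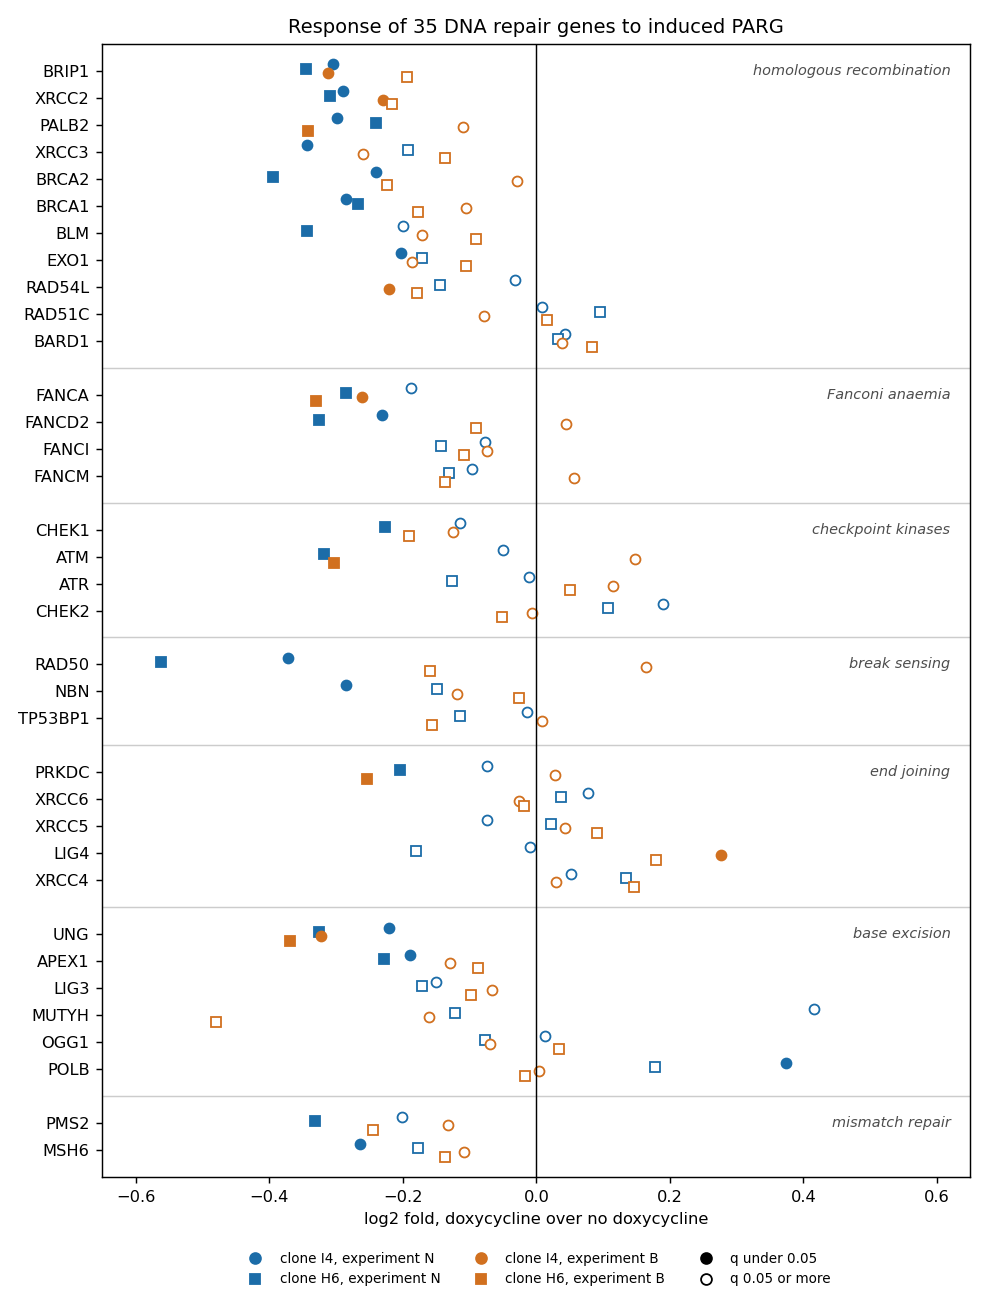
Log2 fold (doxycycline over no doxycycline) of each DNA repair gene in the authors' deposited table, by pathway; circles are clone I4, squares clone H6, blue experiment N, orange experiment B, and filled symbols have q under 0.05. Filled symbols lie left of 0 except POLB in I4 N and LIG4 in I4 B, and the symbol farthest left is RAD50 in H6 N (log2 fold -0.56).

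More repair genes fell in experiment N than in experiment B in both clones. In I4, 3 genes fell in both experiments (BRIP1, XRCC2 and UNG), which is 23.1% of the 13 that fell in N and 60% of the 5 that fell in B. Over all genes tested in both, the falls shared in I4 were 49.4% of those in N and 68% of those in B, so the share of the repair genes was lower in N and close in B. In H6, 5 genes fell in both (PALB2, FANCA, ATM, PRKDC and UNG), which is 33.3% of the 15 that fell in N and 100% of the 5 that fell in B, beside 38.3% and 74.9% over all genes tested. Across the 35 genes the log2 folds of N and B had a Pearson r of 0.56 in H6 and 0.30 in I4. Their Spearman rho was 0.63 in H6 and 0.40 in I4. Over genes of at least 1 RPKM, r and rho were 0.74 and 0.69 in H6, and 0.80 and 0.65 in I4. Over genes tested in all 4 comparisons, r and rho were 0.16 and 0.46 in H6, and 0.20 and 0.44 in I4. The genes of a comparison share its libraries and are not independent, so these values describe the plot only. The signs of N and B were opposite for 14 genes (40%) in I4 and 6 (17.1%) in H6, against 31% and 29.1% of all genes tested. The median of the log2 fold in N minus that in B was -0.06 in I4 and -0.05 in H6, against -0.016 and -0.013 over all genes tested. With genes of at least 5 RPKM alone it was -0.020 in I4, which is the median of all genes of at least 1 RPKM, and -0.037 in H6.

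The 9 genes that fell in both clones of experiment N were BRCA1, BRCA2, PALB2, BRIP1, XRCC2, FANCD2, RAD50, UNG and APEX1. In experiment B their log2 folds were below 0 for 9 of 9 in H6, where PALB2 and UNG fell. In I4 they were below 0 for 7 of 9, with FANCD2 and RAD50 as the exceptions, and BRIP1, XRCC2 and UNG fell. These counts were not taken over all genes that fell in both clones of N, so they show nothing particular to repair genes. The 9 were picked for their falls in N, so part of any gap in which N is the lower is built in. RAD50 had the largest gap between experiments among the 9. Its log2 fold in N was lower than in B by 0.54 in I4 and 0.40 in H6. This gap is uncertain, because RAD50 shares 79.7% of its exon bases with AC116366.3 on the same strand. FANCD2 followed, lower in N by 0.28 in I4 and 0.24 in H6. Over all 35 genes, the largest differences the other way in both clones were those of MUTYH, POLB and CHEK2. N minus B was 0.58 in I4 and 0.36 in H6 for MUTYH, 0.37 and 0.20 for POLB, and 0.20 and 0.16 for CHEK2. MUTYH rests on the fewest reads of the list and shares 14.1% of its exon bases with a gene on the other strand. These differences between experiments were not tested, since that needs values per library.

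Experiment B was sequenced less deeply, at passage 7 rather than 5, at another centre and with a strand-specific kit, and these cannot be told apart. Over all gene rows, 2659 were called in experiment N against 2231 in experiment B in I4, and 2362 in experiment N against 1203 in experiment B in H6. When as many genes were called in N as in B, by lowering the q threshold to 0.0266 in I4 and 0.00314 in H6, 11 of the 13 genes in I4 and 8 of the 15 genes in H6 still fell in N, against 5 in B in each clone. This setting was chosen after the data were seen.

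**Figure D4:**
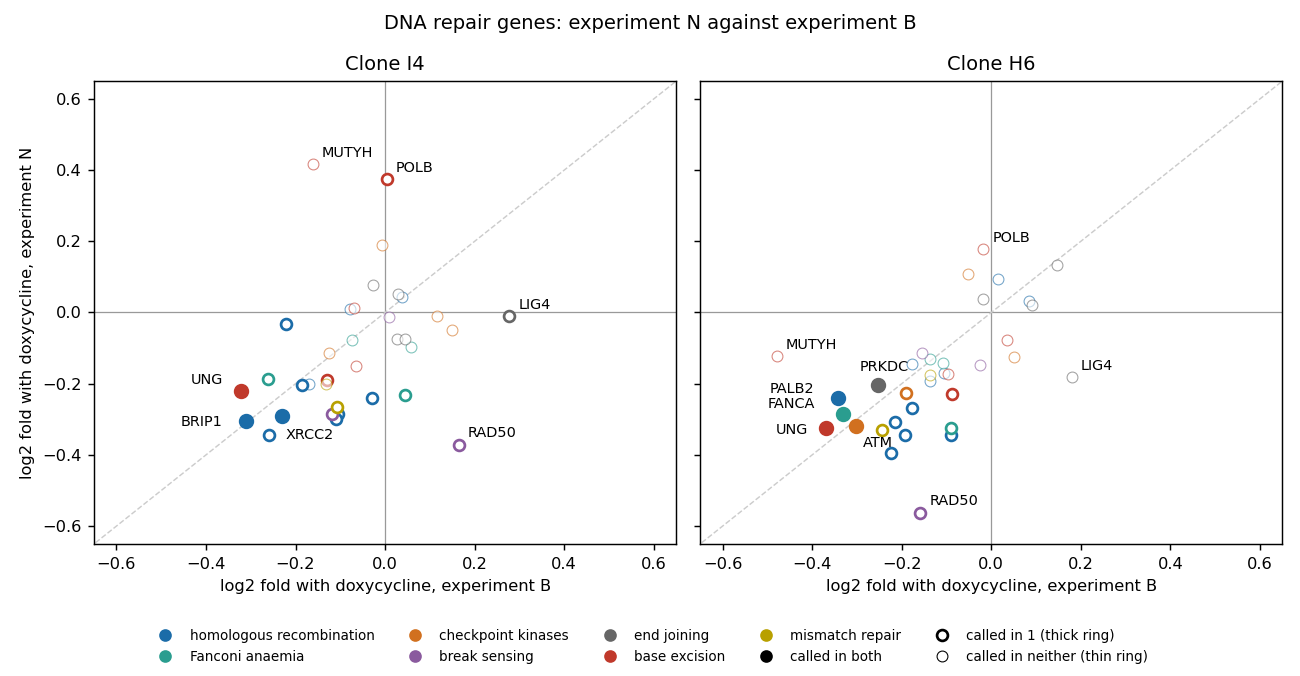
Log2 fold of each DNA repair gene in experiment N (vertical) against experiment B (horizontal), for clone I4 (left) and clone H6 (right); colour gives the pathway, filled points are called in both experiments, thick rings in 1 and thin rings in neither, and the dashed line marks equal folds. In H6 the 5 genes called in both lie close to the line, and RAD50 lies below it in both clones.

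The strand matters to some of these genes, because libraries of experiment N keep both strands and reads of overlapping genes on opposite strands cannot be told apart there. In GENCODE 29, 9 of the 35 genes share over 10% of their exon bases with a gene on the other strand, and XRCC3 has the most, 76.7% with KLC1. KLC1 was not called in the authors' deposited table, with log2 folds of -0.02 in I4 N, -0.06 in H6 N, 0.08 in I4 B and -0.11 in H6 B. FANCA shares 23.6% with ZNF276, which was not called either, at log2 folds of -0.10, -0.11, -0.16 and -0.23 in the same order of the authors' deposited table. Of the other seven, LIG3 (30.5%), OGG1 (29%), TP53BP1 (28.7%), ATR (16.4%) and MUTYH (14.1%) never fell, RAD54L (25.1%) fell in experiment B and MSH6 (16.2%) in experiment N. Pseudogene copies of the same name exist for PMS2 (10), XRCC6 (5), CHEK2 (4), UNG (2) and FANCD2 (1), so how their reads were assigned is uncertain.

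The clones were also set against each other within an experiment. Across the 35 genes the log2 folds of I4 and H6 had a Pearson r of 0.73 and a Spearman rho of 0.78 in N. In experiment B these were 0.50 and 0.49. The signs were opposite for 3 genes in N and 9 in B. The same values were not taken over all genes, so they describe the list and show nothing particular to it. ATM and PRKDC, both large kinases of the same family, fell in H6 in both experiments and in I4 in neither. The ATM log2 fold was higher in I4 than in H6 by 0.27 in experiment N and 0.45 in experiment B, and that of PRKDC by 0.13 and 0.28. The difference between clones was not tested; the PARG fold was larger in H6 than in I4 in both experiments.

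A further 118 repair genes, which cover the same pathways and nucleotide excision and translesion synthesis, were read in the same way. Of these, 13 fell and 5 rose in I4 N, 16 fell and 4 rose in H6 N, 10 fell and 4 rose in I4 B, and 8 fell and 0 rose in H6 B. The shares that fell were 11.0%, 13.6%, 8.47% and 6.78% in that order, near those of genes of at least 1 RPKM, and the shares that rose were 4.24%, 3.39%, 3.39% and 0%, under those of the same genes. Their median log2 folds were -0.04 in I4 N, -0.07 in H6 N, -0.05 in I4 B and -0.08 in H6 B. In the 26 other genes of homologous recombination, 1 fell in I4 and 3 fell in H6 in experiment N, and none fell in both clones.

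In experiment N 9 of the 118 (7.63%) fell in both clones, and in experiment B 3 (2.54%) did. Of all genes tested in both clones, 4.49% did so in N and 2.55% in B. Of genes of at least 1 RPKM, 6.62% and 3.45% did, so the shares of the 118 are near the background. In all 4 comparisons 1 gene (0.847%) fell, against 1.97% of genes tested and 2.68% of those of at least 1 RPKM. CLSPN, the adaptor through which ATR activates CHEK1, fell in all 4 comparisons: the authors' deposited table gives 1.45-fold in I4 N (q = 8.09e-06), 1.59-fold in H6 N (q listed as 0), 1.30-fold in I4 B (q = 7.06e-06) and 1.25-fold in H6 B (q = 0.00267). PARP1, the main maker of poly(ADP-ribose), fell in 3, at 1.38-fold in I4 N (q = 9.87e-05), 1.25-fold in H6 N (q = 0.0151) and 1.29-fold in I4 B (q = 1.5e-06) in the authors' deposited table, with 1.16-fold in H6 B (q = 0.0755). POLD1, the catalytic subunit of polymerase delta, fell 1.33-fold in I4 N (q = 8.11e-08), 1.38-fold in H6 N (q = 2.08e-09) and 1.28-fold in H6 B (q = 0.000952) in the authors' deposited table. Also lower in both clones of experiment N were ERCC2, a helicase of nucleotide excision, CDC25A, a phosphatase that the checkpoint targets, RIF1, which acts with TP53BP1, the Fanconi core subunit FANCB and POLQ, the polymerase of microhomology-mediated joining. ALKBH2, which reverses alkylation of bases, and POLM, a polymerase of end joining, fell in both clones of experiment B.

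Genes of the cell cycle were read in the same way. A set of 23 genes covers replication licensing and S phase. Of these, 10 fell in I4 N, 7 in H6 N, 11 in I4 B and 2 in H6 B, and none rose. Their shares were 43.5%, 30.4%, 47.8% and 8.7%, against 12.7%, 10.7%, 9.1% and 5.32% of genes of at least 1 RPKM. In I4 the share in B was not below that in N, unlike that of the 35 repair genes (37.1% in N and 14.3% in B). The medians of the 23 were -0.21, -0.18, -0.20 and -0.16 on the log2 scale in that order. Of 18 mitosis genes, 7 rose in I4 N, 7 in H6 N, 3 in I4 B and 0 in H6 B, and 1 fell, in I4 B. The shares that rose were 38.9%, 38.9%, 16.7% and 0%, against 10.4%, 9.81%, 10.2% and 4.93% of genes of at least 1 RPKM. The medians of the mitosis genes were 0.11, 0.09, 0.10 and 0.09. The part of a shift in cell cycle phase in the falls of the repair genes was not tested.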

How the data were processed

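Poly(A)-selected RNA of 23 wells of PC-3 clones was sequenced, per the labels' protocols, with libraries of both strands in experiment N and strand-specific libraries in experiment B. The build was hg38, per the submitters' processing notes. Programs for alignment, counting and testing were not given in the sources used here. Deposited was the authors' table of 4 comparisons, without values per library. Its levels are the higher of the group means, on a scale taken as RPKM because the product of level and exon length takes fixed steps where reads are few, a unit the deposited file does not name. Its folds are a signed ratio made by the authors, never between -1 and 1, and its q-value is a p-value that the authors adjusted over all genes by an unstated method.

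Folds were converted to log2, and counts of q under 0.05 were set beside the same counts over all genes tested and over genes of at least 1 RPKM in all 4 comparisons. Of the 21463 rows, 27 have date-like names; they entered these counts. Exon overlaps and pseudogenes come from GENCODE 29 and promoter windows from RefSeq (GRCh38.p14). Alternatives were q under 0.01 and under 0.1, a fold of at least 1.2, a level of at least 5 RPKM, centring, and means in place of medians. The genes and lists were chosen with earlier results of these data known. All 35 genes are named; of the 118 others, at most 8 per experiment and direction with the same call in both clones, by the smaller of their larger q. The depth of a library is known only from the steps (about 19.2 to 43.2 M reads), and without counts no interval is given. Scripts used Python 3.11.15, pandas 2.3.3 and numpy 2.4.6 and were tested on simulated data.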

Additional observations from a re-analysis of the deposited data

How the results depend on the processing

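Of 70 alternatives, 17 concern counts that are 0 and stayed 0, most under settings that can only remove calls, and say nothing about stability. Of the other 53, 35 left the count within 1.5 times its main value or the median within 0.05 on the log2 scale, 18 moved a count past that, and none turned a direction. That tolerance is nearly as large as the medians of N minus B, of which the one in I4 was -0.020 with genes of at least 5 RPKM. With q under 0.01, the genes called lower numbered 7 in I4 N, 2 in I4 B, 2 in H6 B, 3 in both clones of experiment N, 1 in both clones of experiment B and 0 in all 4, and the genes called higher numbered 0 in I4 N and 0 in I4 B. With q under 0.1, 2 genes (UNG and FANCA) were lower in all 4. Requiring a fold of at least 1.2 left 8 lower in I4 N, 2 in I4 B, 4 in both clones of experiment N, 1 in both clones of experiment B and 0 in all 4. Keeping genes of at least 5 RPKM left 8 lower in H6 N and 2 in H6 B, and 0 higher in I4 B. This setting also takes genes off the list. Its counts therefore stand over fewer than 35 genes and do not show that the share called changed. Calling as many genes in N as in B, a setting chosen after the data were seen, left 8 lower in H6 N. Centring on the median of genes of at least 1 RPKM moved every log2 fold by under 0.01.

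No paired analysis was possible because the table holds no values per library; for the same reason leaving out each replicate was not run, and there is no interval, SD or test of N against B or of I4 against H6. The folds are small and many calls lie near the threshold, so counts depend on it. MUTYH, LIG4, XRCC4 and RAD50 rest on the fewest reads. Untreated H6 in experiment B had 2 wells.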
